A study of Rattus norvegicus with 24 samples.

Results

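The hearts of 4 rats given zinc sulfate were compared with those of 4 rats given the high dose of oil combustion particles (PM-HD), over 15866 of the 15923 probe sets of the Affymetrix Rat 230A array. The 57 control probe sets of the manufacturer were left out, and the 8 arrays, 1 per rat, are the members of this comparison among the 24 arrays of 6 groups in the data set. All rats were male Wistar Kyoto, 12 to 14 weeks old at the start, and received weekly instillations into the trachea at 1 ml/kg. Per the study's methods and results, the arrays of both groups belong to the 8-week exposure, and tissue of the left ventricle plus septum was taken 2 days after the last instillation; the labels give no weeks. The PM-HD suspension held insoluble particle matter together with 14.5 µg/mg of soluble zinc and 3.0 µg/mg of soluble nickel. The other exposure was zinc sulfate alone in saline, for which the label of the samples gives 14.5 µg/ml and the treatment protocol 33.4 µg zinc per ml. By the study's dose table both groups of the 8-week exposure received the same weekly soluble zinc, and of these only PM-HD received solids. The protocol's 33.4 is the µg of zinc per kg that this table gives for the study's longer exposure. The comparison thus asks what the solids and the nickel add or take away, although the labels do not agree on the concentration of zinc sulfate. The remaining groups received saline alone, volcanic ash without soluble zinc (MSH), the particles at a lower dose (PM-LD), or the filtered soluble part of the particle suspension (PM-L). The replicates of a group were separate rats.

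Zinc that leaves particles in the lung can enter the blood and reach the heart. Cells meet a zinc load with the metal-sensing transcription factor MTF1, which binds metal response elements and raises metallothioneins, small proteins that hold zinc, and the exporter ZnT1. Particles that stay in the lung can keep up a local inflammation, whose mediators can reach the heart through the blood. Heart muscle lives mainly on fatty acids, its fibroblasts lay down collagen and other matrix, and its capillary endothelium makes up a large share of its cells.

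Zinc sulfate hearts had lower signals of Pla2g2a, C1qc, and matrix genes such as Fbn1 than PM-HD hearts, and higher signals of fuel genes such as Mlycd and Acot2. The dim division marker Mki67 was higher too, the 1 call among 38 cell cycle genes, whose median log2 difference was −0.06. None of the 15866 probe sets passed an adjusted p under 0.05. At the thresholds of the study's methods, an unadjusted p under 0.05 from limma with a log2 difference above 0.32 or below −0.42, 444 probe sets were higher with zinc sulfate than with PM-HD (2.80% of all tested) and 434 were lower (2.74%). Together 878 probe sets passed (5.53%). At p under 0.05 alone there were 955 (6.02%, where 5% would pass with no differences at all), and the lowest Benjamini-Hochberg adjusted p over all probe sets was 0.304. By their brightest probe set, 238 of 10410 genes were higher (2.29%) and 276 lower (2.65%), 4.94% in all. The median fold of the probe sets that passed was 1.60 upward and 0.627 downward, and 97 of the higher and 70 of the lower changed by more than 2-fold. The 4 arrays of one group lay wholly above the 4 of the other for 484 probe sets (3.05%), 232 higher and 252 lower with zinc sulfate. With no differences at all a share of 0.0286 would do so. With median centering in place of quantile normalization the split was 533 higher and 400 lower, with no normalization 312 and 654, and with a pseudocount of 64 it was 433 and 336. In the plot of p against the log2 difference both arms are of like size, and the marked genes Dbp and Mt1 lie below the line of p.

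**Figure D1:**
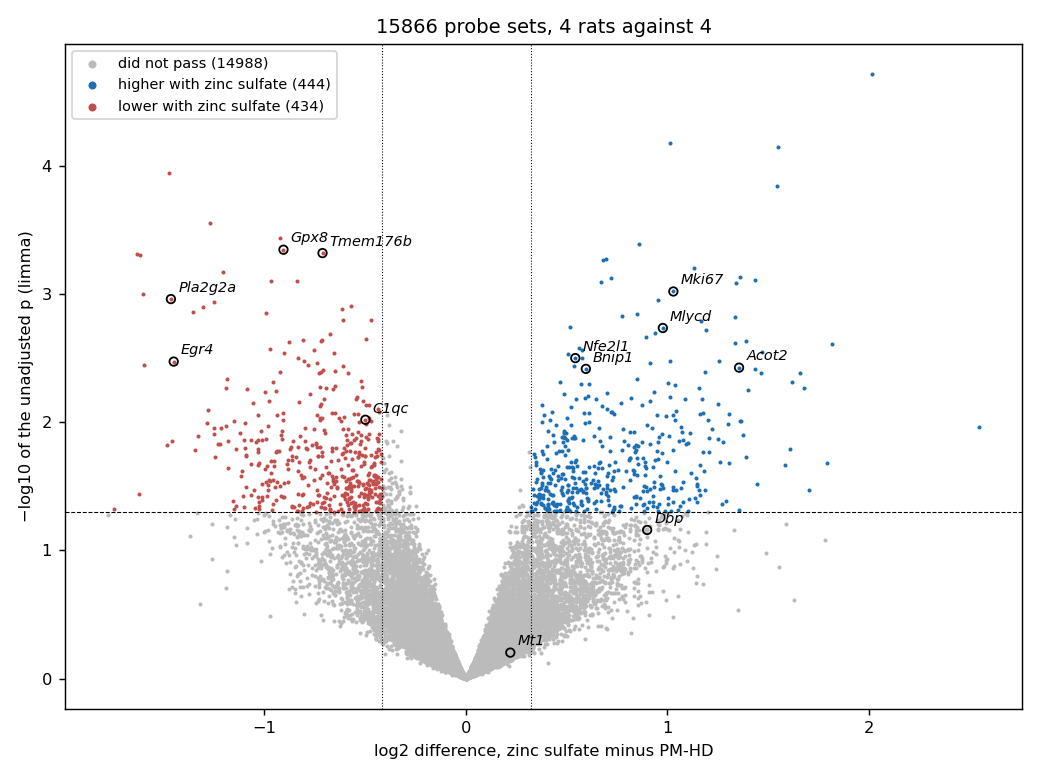
Unadjusted p of limma on a −log10 scale (vertical) against the log2 difference zinc sulfate minus PM-HD (horizontal) for 15866 probe sets, with 444 higher and 434 lower probe sets in color and the thresholds as dashed and dotted lines. Circles mark 12 named genes; Pla2g2a lies at −1.46 and Mki67 at 1.03, while Dbp and Mt1 did not pass.

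One zinc sulfate array stood apart. In replicate 3 the Gapdh control signal from the 3′ end, divided by that from the 5′ end, was 5.57 (this Gapdh ratio rises as RNA is degraded), against 1.42 to 1.52 on the other zinc sulfate arrays. PM-HD arrays had ratios of 2.46, 1.48, 3.59, and 4.81. The mean correlation of zinc sulfate replicate 3 with the arrays of its group was 0.824, against 0.920 to 0.931 for the others, and its median signal was 256.6, against 208.8 to 215.8. Without it 2256 probe sets passed (14.2%), 1112 higher and 1144 lower, the number at p under 0.05 rose to 2427, and the lowest adjusted p fell to 0.0886. Of the 878 probe sets, 662 were shared with this fit, and 225 kept their call when any 1 of the 8 arrays was left out, among them the probe sets of 147 genes. Leaving out PM-HD replicate 2, the PM-HD array with the lowest Gapdh ratio (1.48), gave 1507 probe sets, and the other arrays between 647 and 825. Without zinc sulfate replicate 3, or without PM-HD replicate 2, the groups lie further apart in the Gapdh ratio. The part of this in the higher counts was not tested. The mean of 4 atrial transcripts, a sign of atrial muscle in the sample, was 11.7 on a log2 scale in zinc sulfate replicate 2, 8.80 to 9.04 in the others of its group, and 7.92 to 10.4 in PM-HD. The median Gapdh ratio was 1.50 in zinc sulfate and 3.03 in PM-HD. For the difference of the group means of each measure on a log2 scale, the exact permutation p, two-sided, was 0.457. With 4 against 4 arrays this does not show that the groups are alike. The part of both measures in the differences below was not tested. Ventricular muscle markers dominated all 8 arrays, with a summed signal of 219660 to 291000 for 9 genes in zinc sulfate and 201920 to 257680 in PM-HD, and lung markers summed to 362.7 to 508.7 and 352.1 to 528.8.

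**Figure D2:**
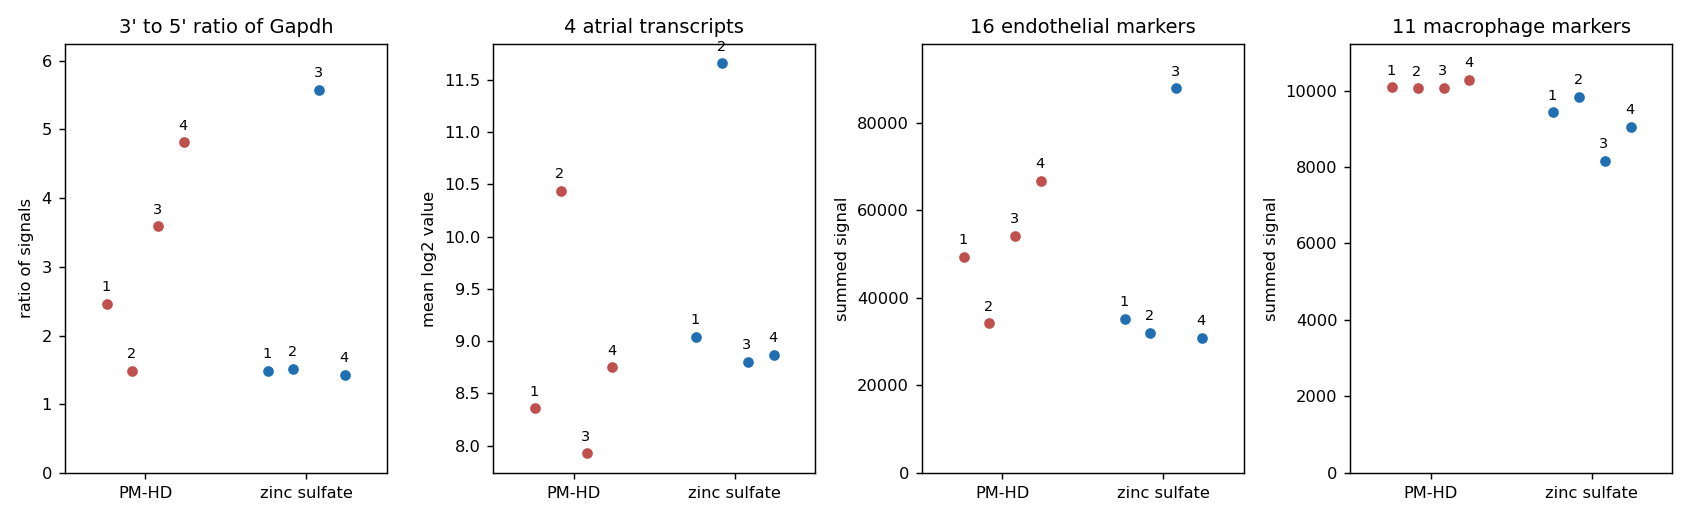
Gapdh ratio (3′ over 5′ control signal), mean log2 value of 4 atrial transcripts, and summed signal of 16 endothelial and 11 macrophage markers on the 4 PM-HD and 4 zinc sulfate arrays, each point 1 array with its replicate number. Zinc sulfate replicate 3 has the highest Gapdh ratio, 5.57, and the highest endothelial sum, 87824, and the macrophage sums of the groups do not overlap.

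Signals are given below as deposited, on a linear scale and in the order of replicates 1 to 4, and values after ± are SDs over 4 rats. Log2 differences are zinc sulfate minus PM-HD after normalization, with the standard error (SE) and 95% interval of limma. A gene is called higher or lower where its brightest probe set passed the thresholds above, which use the unadjusted p, and adjusted p values are those of limma over all probe sets. The share of a gene list that passed stands beside 2.29% of all genes higher and 2.65% lower. In a short list 1 call alone is a large share. Without zinc sulfate replicate 3, 720 of all 10410 genes were higher and 779 lower, 14.4% together. Without PM-HD replicate 2, 456 were higher and 472 lower. List counts from these fits stand beside those larger shares. For a gene without overlap the exact permutation p, two-sided, was 0.0286, the smallest that 4 against 4 arrays allow. The largest changes below were chosen among genes without overlap, so for them this p was fixed by the choice and adds no support.

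The 10 largest decreases among bright genes without overlap after normalization were Pla2g2a, Gpx8, Nktr, Hyou1, Mx1, Srebf2, Itpk1, Tmem176b, Gpc6, and Coa8. Pla2g2a, which encodes a secreted phospholipase A2 known from inflammation, gave 522, 557, 758, and 601 with zinc sulfate and 2194, 1579, 1475, and 1794 with PM-HD. The lowest PM-HD heart was far above the highest zinc sulfate heart. The log2 difference was −1.46 (SE 0.36, interval −2.24 to −0.69, adjusted p = 0.651), or 2.76-fold lower with zinc sulfate, and the call held without any 1 array. Saline hearts lay between at 988 ± 441 and PM-L hearts at 1512 ± 656, each with a wide spread.

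Gpx8, a peroxidase of the endoplasmic reticulum, had signals of 304, 322, 448, and 272 with zinc sulfate and 649, 460.5, 602, and 1089 with PM-HD, a log2 difference of −0.90 (SE 0.20, adjusted p = 0.562). The groups were separated by a narrow gap, between zinc sulfate replicate 3 and PM-HD replicate 2. Saline hearts averaged 484 ± 33.6, between both. Hyou1, a chaperone of the same compartment, gave 295, 295, 219, and 379.8 and 622, 626, 644, and 458 (log2 difference −0.87, SE 0.32). Leaving out zinc sulfate replicate 3 ended the call, at −0.68, and its dimmer probe set differed by 0.23 and did not pass, so that its probe sets disagree.

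Among these decreases, Tmem176b, a membrane protein known from dendritic cells, gave 389.9, 509, 603, and 493 with zinc sulfate and 793, 756, 885, and 993 with PM-HD. The highest zinc sulfate heart stayed below the lowest PM-HD heart, with a log2 difference of −0.71 (SE 0.16, adjusted p = 0.562). Mx1, a GTPase induced by interferon, had signals of 333, 291, 317, and 219 and 678, 391, 705, and 497 (log2 difference −0.82, SE 0.29). Its PM-HD hearts varied more than its zinc sulfate hearts, and saline hearts spread across both groups with 428 ± 234. Nktr, a cyclophilin-related protein first known from natural killer cells, gave 392, 250.5, 553, and 257 and 668, 622, 663, and 854, lower by a log2 difference of −0.90 (SE 0.25). Here saline, at 419.9 ± 133, and PM-L, at 396 ± 88.4, lay near the zinc sulfate mean of 363 ± 143, and MSH, at 600.1 ± 116, near the PM-HD mean of 702 ± 103.

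Srebf2, the transcription factor of cholesterol synthesis, gave 525, 249.3, 614, and 674 with zinc sulfate and 903, 818, 927, and 902 with PM-HD. Zinc sulfate replicate 2 was the low one, and without it the difference of −0.79 shrank to −0.51 and did not pass. A dim second probe set of Srebf2 differed by 0.31 and did not pass. Coa8, an assembly factor of cytochrome c oxidase, had 670.2, 766, 716, and 654 and 1344, 991, 978, and 1321 (log2 difference −0.66, SE 0.25). Itpk1, a kinase of inositol phosphates, and Gpc6, a glypican that carries heparan sulfate, differed by −0.71 (SE 0.19) and −0.68 (SE 0.18). Both kept their calls without any 1 array.

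The 10 largest increases among bright genes without overlap after normalization had log2 differences of 0.54 to 0.65, and each kept its call without any 1 array. These genes were Gamt, Mplkip, Tomm34, Bnip1, Stk16, Snrk, Cnot8, Hnrnpm, Nfe2l1, and Arfgap1. Nfe2l1, the transcription factor that raises proteasome genes when proteasomes are short, gave 1554, 1818, 1226, and 1842 with zinc sulfate and 931, 1158, 1169.6, and 985 with PM-HD. Its zinc sulfate replicate 3 came close to the PM-HD hearts and the other 3 were clear of them. The log2 difference was 0.54 (SE 0.16, adjusted p = 0.767), and its other probe sets were higher too, by 0.70 and 0.28, the first of which passed. Proteasome subunits themselves had 0 higher and 0 lower of 32 genes, and 3 higher and 3 lower without zinc sulfate replicate 3. In that fit 14.4% of all genes passed.

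Bnip1, a protein of vesicle traffic between the Golgi and the endoplasmic reticulum, had signals of 1051, 1022, 873, and 886 and 723, 747, 499.9, and 623. Zinc sulfate hearts averaged 958 ± 91.5, against 648 ± 112 with PM-HD and 773 ± 101 with saline (log2 difference 0.60, SE 0.17, adjusted p = 0.767). Arfgap1, which acts on a small GTPase of the Golgi, differed by 0.54 (SE 0.19), with 2 further probe sets at −0.02 and 0.31 that did not pass. Gamt, the enzyme of the last step of creatine synthesis, gave 887, 761, 494, and 545 and 459, 407, 472, and 361 (log2 difference 0.65, SE 0.21). Zinc sulfate replicates 1 and 2 were high, and replicates 3 and 4 lay just above the PM-HD hearts.

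Tomm34, a cochaperone for proteins on their way to mitochondria, had signals of 366, 465, 452, and 400.1 and 233, 255, 325, and 338 (log2 difference 0.61, SE 0.19). Genes of RNA handling were Cnot8, a deadenylase subunit that shortens mRNA tails, at 0.58 (SE 0.16), and Hnrnpm, a splicing regulator, at 0.56 (SE 0.16). The protein kinases Stk16 and Snrk, the latter related to the energy sensor AMPK, differed by 0.59 (SE 0.19) and 0.58 (SE 0.16). Mplkip differed by 0.61 (SE 0.21), with 2 of its 4 probe sets higher and the dim others at −0.10 and −0.06. In the plot of signals by rat, all 4 zinc sulfate points of Bnip1 stand above the mean of every other group, and those of Gpx8 and C1qc below it.

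**Figure D3:**
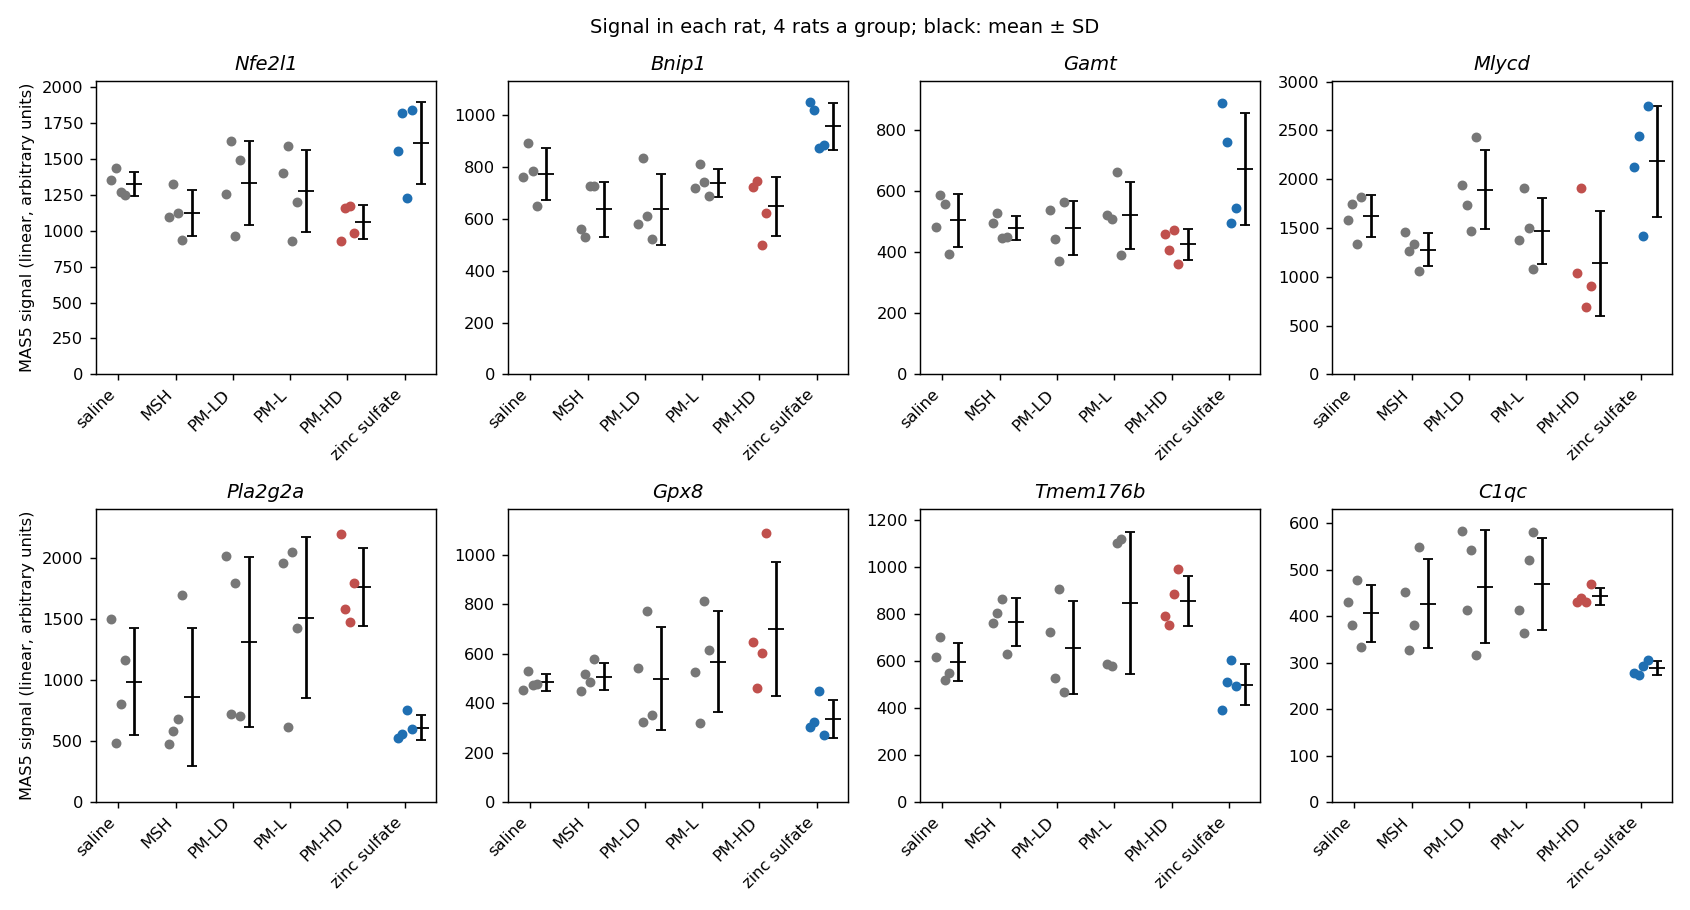
Deposited signal (vertical, linear, arbitrary units) of 8 genes in each of 4 rats of 6 groups, with the mean and SD in black. PM-HD is red and zinc sulfate blue; Pla2g2a averaged 1760.4 ± 318 and 609.5 ± 104 in these groups, and C1qc 442 ± 17.8 and 288 ± 14.8.

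The lowest p of all belonged to a dim probe set of Mdm2, the ubiquitin ligase that restrains p53, and the gene was added after its values were seen. It averaged 111.8 ± 38.4 with zinc sulfate and 17 ± 6.17 with PM-HD (log2 difference 2.02, SE 0.33, adjusted p = 0.304). Saline hearts, at a mean of 93.8, and the other 3 groups, at means of 81.3 to 147, lay on the side of zinc sulfate. The brighter probe set of Mdm2 differed by 0.52 (SE 0.25, interval −0.02 to 1.05) and did not pass. Cdkn1a, a p53 target that arrests the cell cycle, differed by −0.31 (SE 0.17) and did not pass either.

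Matrix genes were the list with the most calls, all of them lower with zinc sulfate. Of 39 genes of collagens and extracellular matrix, 6 were lower and 0 higher (15.4%, against 2.65% of all genes that were lower), and the median log2 difference was −0.32, against −0.01 over all genes. Of the 39, 33 had a negative difference. The 6 were Vcan, Fbn1, Bgn, Lox, Col1a1, and Eln, the genes of the proteoglycans versican and biglycan, the microfibril protein fibrillin, the collagen cross-linking enzyme lysyl oxidase, type I collagen, and elastin. Vcan gave 148, 91.7, 162, and 102 with zinc sulfate and 235, 125, 276, and 314 with PM-HD, with PM-HD replicate 2 within the range of zinc sulfate (log2 difference −0.69, SE 0.21, adjusted p = 0.785). The 4 other probe sets of Vcan lay between −0.11 and 0.09 and did not pass. Col1a1 had 1621, 1799, 2136, and 1624 and 2189, 1927, 2372, and 3092, which overlapped as well (log2 difference −0.45, SE 0.20).

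Fbn1 gave 505, 659, 1196, and 648 and 1034, 837, 1265, and 1597, and its second probe set differed by −0.37 and did not pass. In Fbn1 as in Vcan the highest zinc sulfate heart was replicate 3, the array with the high Gapdh ratio. Bgn, Lox, and Eln differed by −0.51 (SE 0.21), −0.45 (SE 0.19), and −0.43 (SE 0.19). A dimmer probe set of Lox differed by 0.04 and did not pass. Of the 8 fits that left out 1 array, Vcan kept its call in 8, Fbn1 in 6, Lox and Eln in 4, and Bgn and Col1a1 in 3. The abundant collagen gene Col3a1 and the proteoglycan gene Dcn had differences of −0.29 (interval −0.73 to 0.15) and −0.41 (interval −0.90 to 0.08) and did not pass. Saline hearts, at 1106 ± 127 for Fbn1 and 1912 ± 337 for Bgn, lay nearer to PM-HD, at 1183 ± 327 and 2053 ± 621, than to zinc sulfate, at 752 ± 304 and 1409.7 ± 157, and so did those of Vcan and Eln. For Col1a1, at 1938 ± 228, and Lox, at 303 ± 46.7, saline lay nearer to zinc sulfate, at 1795 ± 242 and 246 ± 48.5. Leaving out zinc sulfate replicate 3 gave 14 lower matrix genes, and leaving out PM-HD replicate 2 gave 13. Over all 10410 genes these fits gave 779 and 472 lower, against 276 with all arrays. The count of lower matrix genes was 3, 4, and 4 without zinc sulfate replicates 1, 2, and 4. Without replicates 1, 3, and 4 of PM-HD it was 7, 2, and 1. It was 1 in a fit of the 8 arrays alone and 4 with median centering. With the Gapdh ratio as a covariate 4 were lower and the median was −0.17, and without the arrays of a Gapdh ratio above 3 it was 3 lower, 1 higher, and a median of −0.19. In all these fits the median stayed between −0.44 and −0.15, and the part of RNA degradation was not tested.

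Matrix proteases and their inhibitors, in 1 list, followed with 2 lower and 0 higher of 24 genes (8.33%, against 2.65% of all genes that were lower). Their median was −0.17. Mmp2, the gelatinase of fibroblasts, gave 953, 976, 1329, and 1016 with zinc sulfate and 1531, 1153, 1486, and 1859 with PM-HD (log2 difference −0.48, SE 0.17). Only PM-HD replicate 2 lay within the zinc sulfate range, and a second probe set was lower too, at −0.64. Plat, tissue plasminogen activator, had 487, 671, 1173, and 420.4 and 1245, 867, 978, and 1579, where zinc sulfate replicate 3 exceeded 2 of the PM-HD hearts (log2 difference −0.77, SE 0.30). Without that array 6 of the 24 were lower and 1 was higher, without PM-HD replicate 4 there was no call, and without zinc sulfate replicate 1 or 4 there was 1 lower. Among 11 fibroblast markers, Pdgfra, the receptor for platelet-derived growth factor, and Col1a1 were lower (18.2%, against 2.65% of all genes) and none higher. Each kept its call in 3 of 8 fits that left out 1 array. The list had 0 lower without zinc sulfate replicate 4, PM-HD replicate 3, or PM-HD replicate 4 and with all 24 arrays in the fit, 4 without zinc sulfate replicate 3, and 5 without PM-HD replicate 2. The summed signal of the 11 markers was 22094 to 35575 in zinc sulfate and 22540 to 42848 in PM-HD, and in these whole-tissue samples fewer cells of a type and less RNA per cell cannot be told apart.

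Among macrophage genes 1 was lower with zinc sulfate. C1qc, a chain of C1q that macrophages make, gave 278, 274, 293, and 306 with zinc sulfate and 430.0, 439.6, 431, and 468 with PM-HD. Each group varied little, and the gap between them was larger than the range within either. The log2 difference was −0.50 (SE 0.17, interval −0.86 to −0.14, adjusted p = 0.785), and the call held without any 1 array. Saline hearts averaged 406 ± 61.8, MSH 427 ± 96, and PM-L 469 ± 99, all on the side of PM-HD. Of 11 macrophage markers C1qc alone passed (9.09%, against 2.65% of all genes that were lower), and 9 had a negative difference. C1qa, another C1q chain, differed by −0.37 (SE 0.17) and Fcer1g, a signaling chain of Fc receptors, by −0.37 (SE 0.15), both short of the limit of −0.42. The summed signal of the list was 8166.3 to 9831 in zinc sulfate, 10054 to 10281 in PM-HD, and 9221.2 to 10904 in saline.

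Lymphocyte and mast cell markers were dim. Cd8b, a chain of the coreceptor of cytotoxic T cells, gave 62.2, 74.2, 61.4, and 33.9 with zinc sulfate and 179, 80.7, 194, and 128 with PM-HD (log2 difference −1.0, SE 0.31). The groups came within a few units of each other at PM-HD replicate 2. Klrd1, a receptor of natural killer cells, had 54.1, 62.2, 123, and 77.2 and 157, 99.1, 125, and 134 (log2 difference −0.55, SE 0.17). These were 2 lower of 14 T and natural killer cell markers (14.3%, against 2.65% of all genes that were lower), whose median difference was 0.03, and the summed signals of the groups overlapped, 1295 to 2037.9 and 1727.5 to 1904.5. Mcpt1, a mast cell protease with close relatives in its family, gave 25.6, 9.3, 12.4, and 11.9 and 18.9, 71.2, 84.5, and 77.4, with a log2 difference of −1.19 (SE 0.37) and saline at 14 ± 4.74. PM-HD replicate 1 was as low as the zinc sulfate hearts. Mcpt1 was the 1 lower of 7 mast cell markers (14.3%, against the same 2.65%).

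Of 23 antigen presentation genes 21 had a negative difference, with a median of −0.29, and 1 passed (4.35%, against 2.65% of all genes that were lower). Tapbp, the chaperone tapasin that loads class I molecules, gave 471, 576, 567, and 501 with zinc sulfate and 609, 685, 908, and 850.5 with PM-HD (log2 difference −0.45, SE 0.18). RT1-CE5, a class I gene of a family of near-identical copies whose probes may be shared, had 966, 272, 927, and 166 and 767, 564, 895, and 1090.2. Zinc sulfate replicates 1 and 3 were within the PM-HD range and replicates 2 and 4 were far below it, and the difference of −0.73 (SE 0.45) did not pass. Psmb9, an immunoproteasome subunit, differed by −0.39 (SE 0.27) and did not pass. Of the 23 genes, 7 were lower once zinc sulfate replicate 3 was left out, and 0 once PM-HD replicate 3 or 4 was. With the Gapdh ratio as a covariate 0 were lower and the median was −0.14, and with median centering 0 were lower. Among 44 inflammatory mediators 1 was lower (2.27%), Ptgs1, which makes prostaglandin precursors, at −0.94 (SE 0.42).

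Endothelial genes gave 0 calls with all arrays and 11 without zinc sulfate replicate 3, a fit in which 14.4% of all genes passed. Of 16 endothelial and capillary markers 15 had a negative difference, with a median of −0.28, and none passed. Car4, a carbonic anhydrase of capillaries, gave 1178, 503.8, 2753, and 762 with zinc sulfate and 2742, 1885, 1222, and 2719 with PM-HD. Zinc sulfate replicate 3 was the highest of the 8 hearts and the other 3 were below all PM-HD hearts. The difference was −0.89 (interval −1.86 to 0.08) with that array and −1.36 without it. Kdr, a receptor for vascular endothelial growth factor, had 3739.5, 2909.5, 8033, and 3427 and 5340.4, 4018, 6344, and 6295, with the same order of the zinc sulfate replicates (−0.47, and −0.86 without replicate 3). Pecam1, a junction protein of endothelium, differed by −0.26, and by −0.85 without it. Without zinc sulfate replicate 3 the median of the 16 was −0.67, and with the Gapdh ratio as a covariate it was 0.02 and none passed. Without the arrays of a Gapdh ratio above 3, which leaves 3 zinc sulfate and 2 PM-HD arrays, the median was −0.28 and 3 were lower. Summed endothelial signals were 35231, 32044, 87824, and 30824 in zinc sulfate and 49350, 34177, 54145, and 66648 in PM-HD. Of the 8 arrays, those with the higher Gapdh ratios also had the higher endothelial sums, and the part of RNA degradation in this list was not tested.

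**Figure D4:**
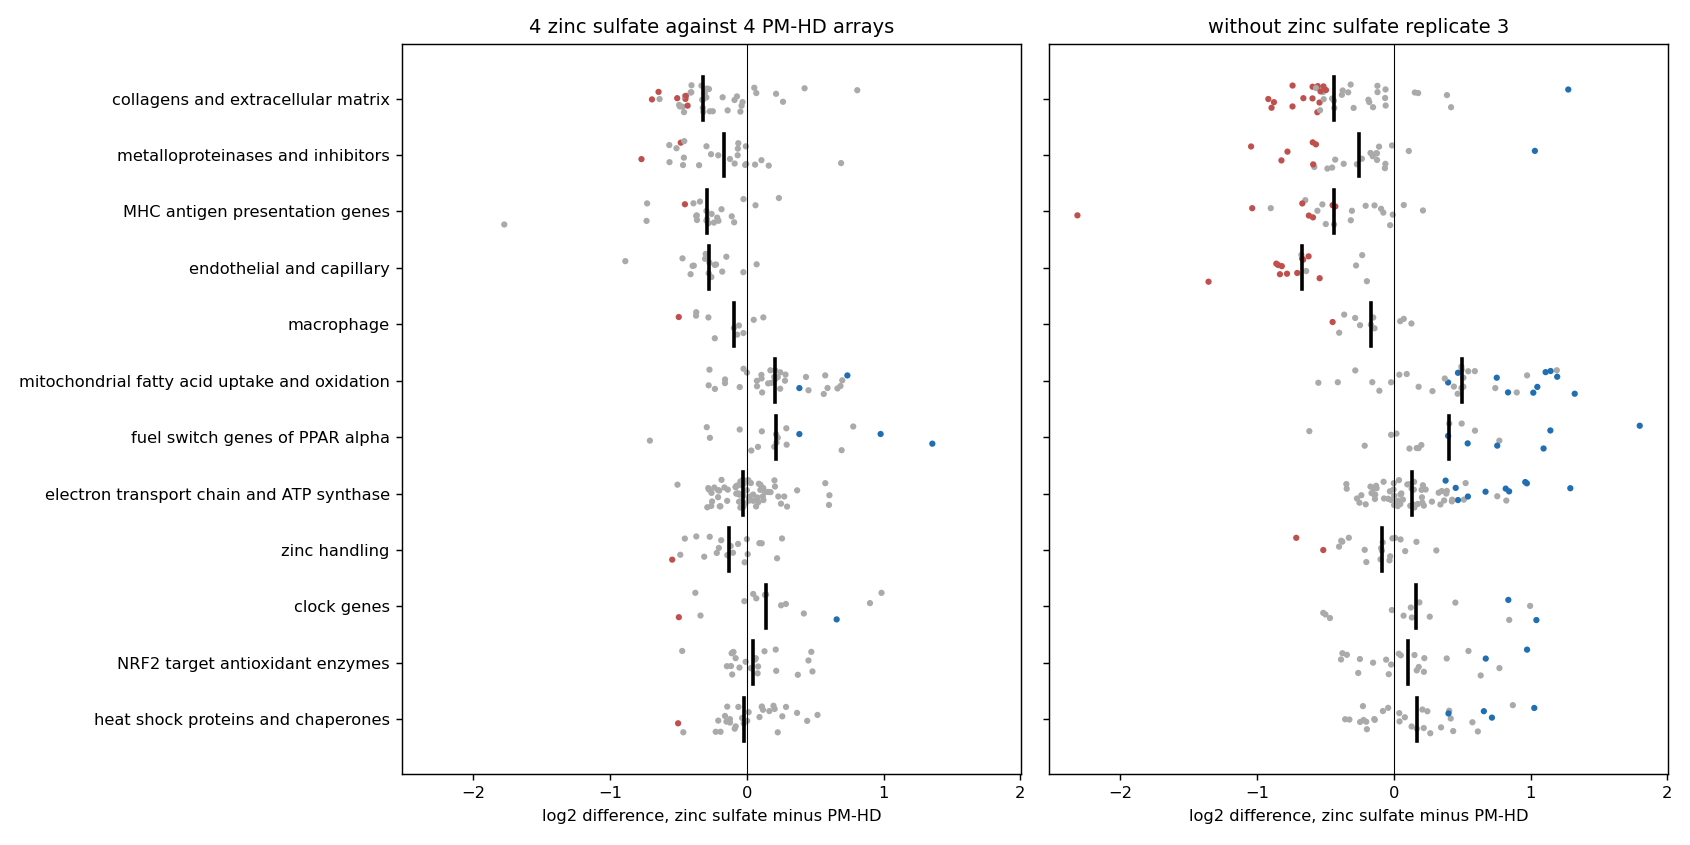
Log2 difference zinc sulfate minus PM-HD (horizontal) of each measured gene of 12 lists, with all 8 arrays (left) and without zinc sulfate replicate 3 (right), blue for genes that were higher, red for lower, and a bar at the median. Matrix genes have a median of −0.32 on the left and endothelial markers move from −0.28 to −0.67, while fatty acid genes move from 0.20 to 0.50.

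Fuel genes gave calls in the other direction. Of 18 genes by which the nuclear receptor PPAR alpha switches the heart to fatty acids, 3 were higher and 0 lower (16.7%, against 2.29% of all genes that were higher), with a median of 0.22. Leaving out 1 array gave 2 higher (without zinc sulfate replicate 2, PM-HD replicate 3, or PM-HD replicate 4) to 6 (without zinc sulfate replicate 3), with medians of 0.12 to 0.40. Mlycd, malonyl-CoA decarboxylase, which removes the brake on fatty acid entry into mitochondria, gave 2127, 2443, 1413, and 2747 with zinc sulfate and 1040.1, 1909.8, 691, and 905 with PM-HD. Only PM-HD replicate 2 reached the zinc sulfate range. The difference was 0.98 (SE 0.26, interval 0.43 to 1.53, adjusted p = 0.71), 1.97-fold, and held without any 1 array. Saline, at 1622 ± 213, lay between zinc sulfate, at 2182 ± 572, and PM-HD, at 1136 ± 535.

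Acot2, a mitochondrial thioesterase that has a close copy in Acot1, gave 221, 257, 86.4, and 387 and 94.6, 102, 37, and 91 (log2 difference 1.36, SE 0.40, adjusted p = 0.767). Zinc sulfate replicate 3 fell among the PM-HD hearts, and saline, at 94 ± 22.6, lay near PM-HD. Cpt1a, the transferase that admits long fatty acids to mitochondria, had 813, 969, 876, and 854 and 766, 812, 559, and 642 (log2 difference 0.38, SE 0.16). The call ended when zinc sulfate replicate 2 or 1 of the PM-HD replicates 3 and 4 was left out. Pdk4, the kinase that shuts pyruvate out of oxidation, had 368, 915, 514, and 558 and 354, 640.2, 312, and 228, with a difference of 0.69 (interval −0.03 to 1.42) that did not pass.

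Mitochondrial fatty acid uptake and oxidation had 2 higher and 0 lower of 34 genes (5.88%), Cpt1a and the dim Acadsb, a dehydrogenase of branched acyl chains, at 0.74 (SE 0.34). The median was 0.20, and 27 of 34 were positive. Acat1, which makes and splits acetoacetyl-CoA, gave 6646, 8120.0, 2367, and 8744 with zinc sulfate and 4183, 5634, 2551, and 1914 with PM-HD (difference 0.68, interval −0.10 to 1.47). Etfdh, which passes electrons from fatty acid oxidation to ubiquinone, gave 2919.8, 3478, 559, and 3577 and 1546, 2802, 957, and 566 (difference 0.70, interval −0.53 to 1.92). Hadh, a dehydrogenase of the same pathway, showed the same order, 6003, 7708, 1261, and 8336 and 3518, 7158, 1975, and 1296. In all 3 genes zinc sulfate replicate 3 was as low as the lowest PM-HD hearts and the other 3 were high, and none of the 3 passed.

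Leaving out zinc sulfate replicate 3 gave 10 higher of the 34 and a median of 0.50, and leaving out zinc sulfate replicate 2 or PM-HD replicate 4 gave 0. With the Gapdh ratio as a covariate the median was −0.06 and 2 passed. Arrays with high Gapdh ratios had low signals of Acat1, Etfdh, and Hadh in both groups, and the part of RNA degradation here was not tested. The electron transport chain had 0 higher and 0 lower of 70 genes with a median of −0.03, and 10 higher without that array. Fabp3, the fatty acid carrier of heart muscle, gave 32021, 32208, 14812, and 36232 and 29405, 27491, 28396, and 15576, a difference of −0.05 (interval −0.52 to 0.42).

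Genes of zinc handling gave 1 call. Of 20 measured, 0 were higher and 1 was lower (5.0%), with a median of −0.13. Mt1, metallothionein 1, had low signals of 15.1, 66.2, 64.5, and 63.1 with zinc sulfate and 14.6, 37.6, 95.5, and 45.9 with PM-HD, which overlapped fully. The difference of 0.22 had an interval of −0.73 to 1.17. With signals this low, the pseudocount added before the log pulls the difference toward 0. The interval thus cannot exclude a 2-fold change of the transcript in either direction. Saline hearts averaged 21.2 ± 17.5. Mt3, another metallothionein, differed by −0.49 (interval −1.35 to 0.37) with 1 high PM-HD heart at 277.5. Slc30a1, the zinc exporter ZnT1 and an MTF1 target, gave 156, 123, 166, and 158 and 179.9, 134, 162, and 188, a difference of −0.02 (interval −0.38 to 0.35). Slc30a2, the vesicular zinc transporter ZnT2, differed by −0.37 (interval −0.80 to 0.06).

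The call was Mtf1, the gene of the zinc sensor itself. It gave 394, 313, 566, and 222 with zinc sulfate and 588, 476, 583, and 599 with PM-HD (log2 difference −0.55, SE 0.19, adjusted p = 0.785). Zinc sulfate replicate 3 reached the PM-HD range and the other 3 lay below it. Leaving out zinc sulfate replicate 4 ended the call, at −0.37, and a dim second probe set differed by 0.47 and did not pass. Saline averaged 492 ± 112.

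The promoter of Mt1 is shown because it carries the sites through which zinc is known to act. The 250 bases before its start, from the RefSeq annotation of assembly GRCr8 at chr19:10832976-10833225 on the minus strand, hold 6 matches to the core of the metal response element (TGCACNC or TGCGCNC, either strand), printed in capitals 5′ to 3′.
Mt1: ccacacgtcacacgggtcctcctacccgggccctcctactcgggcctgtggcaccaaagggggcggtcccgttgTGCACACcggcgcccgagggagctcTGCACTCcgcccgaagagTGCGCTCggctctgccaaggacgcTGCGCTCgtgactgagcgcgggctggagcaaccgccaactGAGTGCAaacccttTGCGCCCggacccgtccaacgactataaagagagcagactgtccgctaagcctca
Over the window from 250 bases before to 50 after the start, 25% of all 27457 RefSeq promoters and 35.6% of the 8632 promoters of genes on the array held at least 1 match. The shares were 30.7% of 199 promoters of genes higher with zinc sulfate, 37.0% of 230 promoters of lower genes, and 64.7% of 17 zinc handling promoters. Mtf1 and Slc30a1 had 2 matches each. A match is a description of the letters and not of binding.

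Heat shock and antioxidant genes gave few calls. Of 31 heat shock proteins and chaperones 1 was lower and 0 higher (3.23%), with a median of −0.02. Without zinc sulfate replicate 3, 4 were higher and 0 lower, with a median of 0.17, and with median centering the median was 0.21. It was Hspa4, a cochaperone of the HSP70 family, with 472, 329.6, 278, and 308 and 565, 609.7, 487, and 434 (log2 difference −0.50, SE 0.19), a call that ended when zinc sulfate replicate 3, PM-HD replicate 1, or PM-HD replicate 2 was left out. Hspa1a, the inducible HSP70 with a near-identical copy, gave 1102, 859, 477, and 670.3 and 495, 616, 729.6, and 814 and differed by 0.19 (interval −0.36 to 0.75). Hsp90ab1, an abundant HSP90, differed by −0.08 (interval −0.75 to 0.58). Among 22 targets of the antioxidant factor NRF2 and 22 enzymes of glutathione, peroxide, and superoxide, 0 passed in either direction, with medians of 0.04 and 0.10. Without zinc sulfate replicate 3, 2 and 6 of them were higher, and 0 and 2 lower. Of 34 hypoxia-induced genes 1 was lower (2.94%), Ndrg1, a stress and differentiation gene, with 606, 615, 1092, and 558 and 1075, 911, 1416, and 1408 (log2 difference −0.72, SE 0.21). Zinc sulfate replicate 3 was the high one of its group, and the call held without any 1 array.

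Clock genes gave 1 call in each direction. Of 14 clock genes, the feedback loop of transcription factors that times daily rhythms, 1 was higher and 1 lower (14.3%, against 4.94% of all genes), with a median of 0.14. There were 0 calls without zinc sulfate replicate 2, without PM-HD replicate 3, and with the Gapdh ratio as a covariate, 2 higher and 0 lower without zinc sulfate replicate 3, and 3 higher and 0 lower without PM-HD replicate 4. Bmal1, the positive arm of the loop, gave 161, 173, 211, and 244 with zinc sulfate and 279, 239, 406, and 313 with PM-HD. Zinc sulfate replicate 4 just exceeded PM-HD replicate 2 and the rest did not overlap. The difference was −0.50 (SE 0.22, interval −0.96 to −0.03), and it was lost in 5 of the 8 fits that left out 1 array. Saline hearts, at 399 ± 56.4, were higher than either group's mean, and PM-L hearts, at 173 ± 117, lay below both.

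Bhlhe40, a repressor within the loop, gave 192, 327, 195, and 334 and 166, 117, 136, and 278 (log2 difference 0.66, SE 0.27) and was lost in 4 of the 8 fits. Dbp, an output gene of the clock, had 1239, 945, 769.6, and 766 and 542, 599.8, 228, and 793, where PM-HD replicate 4 lay above 2 zinc sulfate hearts. Its difference of 0.90 (interval −0.08 to 1.88) did not pass, and without that array it was 1.12 and passed. Saline hearts averaged 175 ± 49, below both groups. The repressors Nr1d1 and Nr1d2 differed by 0.29 (interval −0.52 to 1.09) and 0.25 (interval −0.54 to 1.04). Per1, at 649.9, 619, 849, and 358 and 402, 430.2, 46.6, and 899, spread so far within PM-HD that its difference of 0.99 had an interval of −0.34 to 2.31. Per2, Bhlhe41, and Tef differed by −0.34, 0.42, and −0.38, and Clock, Cry2, Hlf, Nfil3, and Per3 by −0.02 to 0.14, none of which passed. A dimmer probe set of Clock differed by 0.35 and passed.

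**Figure D5:**
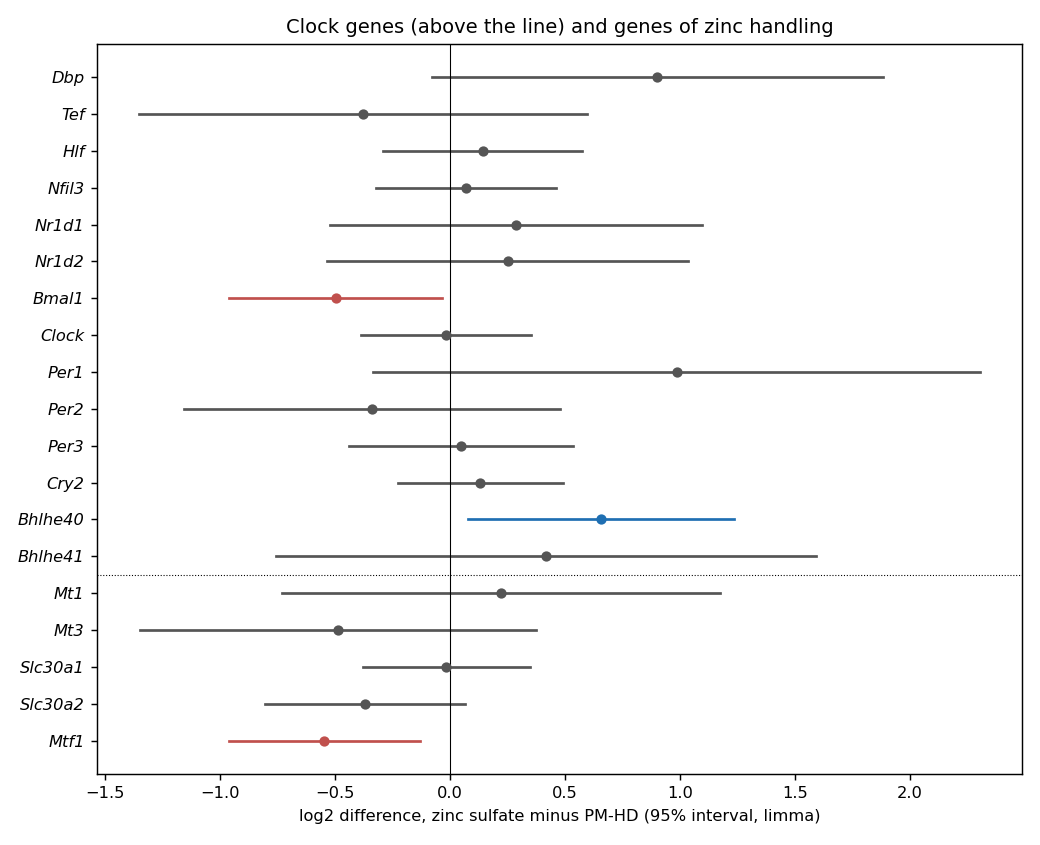
Log2 difference zinc sulfate minus PM-HD (horizontal) with its 95% interval from limma for 14 clock genes and 5 genes of zinc handling, blue where higher, red where lower, and gray where the thresholds were not passed. Bhlhe40, Bmal1, and Mtf1 passed; the intervals of Dbp (−0.08 to 1.88) and Mt1 (−0.73 to 1.17) include 0.

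The promoter of Bmal1, shown because it was the clock gene that was lower, holds in the 250 bases before its start 1 match to the RORE, the element through which NR1D1 is known to repress it. It lies at chr1:176766078-176766327 of GRCr8 on the plus strand, with the match in capitals.
Bmal1: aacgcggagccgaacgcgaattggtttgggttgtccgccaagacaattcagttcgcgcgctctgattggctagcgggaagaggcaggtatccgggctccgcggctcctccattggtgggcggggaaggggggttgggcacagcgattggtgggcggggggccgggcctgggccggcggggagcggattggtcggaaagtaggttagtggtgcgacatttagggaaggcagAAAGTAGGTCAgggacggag
The element was found in 0.317% of all promoters and 0.116% of those of genes on the array, in the window with 50 bases after the start and on either strand. The E-box CACGTG was in 6.65% of all promoters, 8.92% of those on the array, 10.1% of those of higher genes, and 5.22% of those of lower genes. Among 13 clock promoters 3 held it, namely those of Tef, Bhlhe40, and Bhlhe41. The D-box (TTACGTAA or TTATGTAA) was in 1.01% of all promoters and in that of Per2 among the clock genes.

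Immediate early and growth transcription factors had 3 lower and 0 higher of 31 genes (9.68%, against 2.65% of all genes that were lower), with a median of −0.03. Leaving out zinc sulfate replicate 2 gave 1 lower, and leaving out zinc sulfate replicate 3 gave 5 lower and 1 higher. Egr4, an early response factor with dim probe sets, gave 19.6, 11.8, 60.9, and 27.4 with zinc sulfate and 74.7, 88.2, 138, and 142 with PM-HD (log2 difference −1.45, SE 0.42, adjusted p = 0.767). The groups did not overlap, and the call held without any 1 array. Klf4, a factor that restrains growth of vascular cells, had 856, 874, 1711, and 760.1 and 1889, 1017, 1610.4, and 2267 (log2 difference −0.69, SE 0.27). It lost its call in 5 of 8 fits that left out 1 array, and saline, at 1941 ± 42.9, lay above PM-HD, at 1696 ± 527. Myc, a driver of cell growth, gave dim signals of 49.7, 32.1, 55.7, and 59.7 and 72, 171, 72.7, and 116 (log2 difference −0.77, SE 0.30), and it did not pass when zinc sulfate replicate 2 or PM-HD replicate 2 was left out.

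One of 38 cell cycle genes was higher (2.63%), Mki67, a marker of dividing cells, with dim signals of 105, 87.6, 154, and 72.4 and 35, 75.4, 52.4, and 27 (log2 difference 1.03, SE 0.25, adjusted p = 0.63). PM-HD replicate 2 just passed the lowest zinc sulfate heart, and saline, at 51.1 ± 7.94, resembled PM-HD while MSH, at 121 ± 23.7, and PM-L, at 128 ± 45.1, lay with zinc sulfate. Of the 38 genes, 16 had a positive difference, and the median of the list was −0.06. Ccnd1, a cyclin of cell cycle entry, differed by −0.27 (interval −0.65 to 0.11). Egfr, the receptor for epidermal growth factor, and Ptprm, a phosphatase of cell junctions, differed by −0.45 (interval −1.57 to 0.67) and −0.11 (interval −0.45 to 0.24).

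Among 53 kinases 2 were lower (3.77%, against 2.65% of all genes), Src at −0.61 (SE 0.20) and Prkar2b, a regulatory subunit of protein kinase A, at −0.50 (SE 0.18). Taking the mean of its 4 probe sets turned the difference of Src to 0.11. Among 48 protein phosphatases 2 were higher (4.17%), Ppm1a at 0.89 (SE 0.40) and Ppm1l at 0.44 (SE 0.20), where 2.29% of all genes were higher. They kept their calls in 3 and 2 of the 8 fits that left out 1 array, and the list had 0 higher without zinc sulfate replicate 2 or 4 or PM-HD replicate 3 or 4. Of 40 ion channels Kcnj12, an inward rectifier of heart muscle, was higher at 0.82 (SE 0.34) and Kcna4, of the transient outward current, lower at −0.75 (SE 0.30). These 2 calls are 5.0% of the list, against 4.94% of all genes. Without zinc sulfate replicate 3 there were 5 higher and 3 lower, in a fit where 14.4% of all genes passed. Calcium handling had 0 calls among 33 genes and cytosolic ribosomal proteins 0 among 40. Without zinc sulfate replicate 3, 3 calcium genes were higher and 3 ribosomal genes lower. With median centering 1 calcium gene was lower and 6 ribosomal genes were higher.

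In 25 glucocorticoid-induced genes Glul, glutamine synthetase, was higher at 0.36 (SE 0.16) and Tsc22d3, the leucine zipper induced by glucocorticoids, lower at −0.58 (SE 0.21). These 2 calls are 8.0% of the list, against 4.94% of all genes. Glul kept its call in 2 of the 8 fits that left out 1 array, and Tsc22d3 in 6. The other probe sets of Glul differed by 0.64, which passed, and by −0.09, which did not. Among 14 genes of muscle protein turnover Asb2, a ubiquitin ligase subunit, was lower at −0.49 (SE 0.16). This call is 7.14% of the list, against 2.65% of all genes that were lower, and held in 6 of the 8 fits. Tnnt1, slow skeletal troponin T, was the 1 lower of 35 sarcomere genes (2.86%). It gave 3.6, 74.1, 6.9, and 5.7 and 57.8, 46.1, 57.8, and 37.3, close to the floor in 3 zinc sulfate hearts. Zinc sulfate replicate 2, the array with the high atrial mean, exceeded PM-HD. The fetal program of cardiac stress had 0 calls among 19 genes, and 2 higher without zinc sulfate replicate 3. Pmp22, a myelin protein and the 1 lower of 7 nerve markers (14.3%), differed by −0.56 (SE 0.23), and its second probe set by 0.01. Its call held in 4 of the 8 fits.

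The means of the other groups were set beside those of both exposures. Of the 878 probe sets, the saline mean was nearer to the zinc sulfate mean for 42.7%, against 48.0% over all probe sets. The mean of PM-L, which has the soluble zinc and nickel without the solids, was nearer to zinc sulfate for 49.1%, against 49.2%, made up of 55.0% of the higher and 43.1% of the lower probe sets. The PM-LD mean was nearer for 57.1%, against 57.9%, and that of MSH, solids without soluble zinc, for 32.5%, against 40.5%. Among the 94 bright probe sets that passed without overlap the shares were 47.9% for saline, 42.6% for PM-L, 54.3% for PM-LD, and 21.3% for MSH. These shares are descriptions, since each group mean carries the error of 4 arrays and the probe sets are not independent.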

How the data were processed

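Heart RNA (left ventricle and septum) was hybridised to Affymetrix Rat 230A arrays, 1 per rat. The authors deposited signal intensities of the MAS5 kind on a linear scale, each array scaled to a mean of about 500 after trimming 2% at each end (500.1 to 500.2 here). No MAS5 version is given in these sources, and the RMA values on which the study's own tests ran were not used here. Signals ran from 0.1 to 61915, and 4.77% to 10.7% of the signals of an array were under 16, where differences are mostly noise; the number of arrays limits the precision.

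From these values, log2(signal + 16) was quantile normalized over 24 arrays and fitted with limma 3.58.1 (R 4.3.3) on the 16 arrays of the saline, MSH, PM-HD, and zinc sulfate groups, which share 1 estimate of the spread, and zinc sulfate minus PM-HD was taken as the contrast. The pseudocount of 16 pulls differences of dim probe sets toward 0. Thresholds followed the study's methods, and p values were adjusted over 15866 probe sets by the method of Benjamini and Hochberg. Of the probe sets, 12783 had 1 gene symbol, 312 several, and 2771 none; 12778 were matched to current RefSeq names. A gene was read from its brightest probe set, and bright means above the median of all probe sets.

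Genes were named by rule: the 10 largest increases and 10 largest decreases of bright genes that passed without overlap, up to 3 members per list that passed, all clock genes and metallothioneins measured, 2 zinc transporters, and a few genes the study discusses; Mdm2, Car4, Kdr, Pecam1, Acat1, Etfdh, Hadh, Pdk4, Lox, Eln, Dcn, Col3a1, C1qa, Fcer1g, RT1-CE5, and Psmb9 were added after their values were seen. The members and the lists were chosen with earlier results of these data known. The fitting code was tested on simulated data. The closing section gives the effect of other pseudocounts, normalizations, filters, thresholds, array sets, covariates, and of leaving out each array.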

Additional observations from a re-analysis of the deposited data

Results flagged for a closer look

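In each group of 4 arrays, the array measures and the normalized log2 values of the named genes were searched for a single array far from the other 3, by Dixon's test. Of 200 groups tested 19 were marked, where chance marks about 1 in 20 of unselected groups. The named genes were chosen from these data and share arrays, so the count is a description and not a test.

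Zinc sulfate replicate 3 was marked for its Gapdh ratio of 5.57, its median signal of 256.6, and its mean correlation of 0.824 with its group. It was also the lone array for Ndrg1 (10.12) and Klf4 (10.81), above the others of its group, and for Bhlhe41 (7.08), Fabp3 (13.89), Etfdh (9.08), and Hadh (10.33), below them.

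Zinc sulfate replicate 2 was marked for its atrial mean of 11.7 and for log2 values of 8.19 for Gpc6, 9.66 for Coa8, 6.65 for Tnnt1, and 5.16 for Egfr. Replicate 4 was marked for Per2, at 7.76. In PM-HD, replicate 4 was marked for Hyou1 (8.80) and Tnnt1 (5.68), replicate 1 for Mcpt1 (5.10), and replicate 2 for Egfr (5.15).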

How the results depend on the processing

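The count of probe sets past the thresholds, 878 in the report, was 0 at an adjusted p under 0.05 (0 higher, 0 lower), 425 with a test of unequal variances on the 8 arrays (226 higher, 199 lower), and 398 among bright probe sets only (203 and 195). Without normalization 654 were lower. Leaving out 1 array gave 647 to 2256 probe sets, 299 to 1112 higher and 335 to 1144 lower, and 720 to 2265 without overlap, which is easier to reach with 3 against 4 arrays. The lowest totals came without zinc sulfate replicate 4 and the highest without zinc sulfate replicate 3, and without PM-HD replicate 2 the total was 1507. With the Gapdh ratio as a covariate 525 were higher and 418 lower, and without the arrays of a Gapdh ratio above 3, which leaves 3 zinc sulfate and 2 PM-HD arrays, 544 and 572. Other pseudocounts, median centering, symmetric fold limits, the 8 or all 24 arrays, and the atrial mean as a covariate left the total within 1.5 times of 878. The mean of all probe sets turned Src from −0.61 to 0.11. The causes were not tested.

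With the replicate number as a block (replicate block) 922 probe sets passed, 457 higher and 465 lower. The labels do not say that equal numbers mark a shared litter, batch, or day, and same-numbered arrays correlated in their deviations at 0.26, 0.64, 0.26, and −0.65, so the numbers were not taken as pairs. Zinc sulfate replicates 1, 2, and 4 each correlated best with PM-HD replicate 2.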
